A study of Mus musculus with 4 samples.

Results

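The genes Dysf, Trim72, Ano5, Cav3, Cavin1, Bin1 and Dnm2 serve the repair of the muscle fibre's plasma membrane and the building of its transverse tubules. They were chosen by gene symbol, 7 of the 21668 protein-coding genes annotated on autosomes and X, and all 7 symbols were found. For each gene, the regions of H3K27ac, an acetyl mark on a lysine of histone H3 found at active promoters and enhancers, were read within 1 kb of every annotated transcript start and over the gene body plus 50 kb to each side.

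The tissue was the gastrocnemius, a calf muscle, and the assay ChIP-seq, in which chromatin bound by an antibody to the mark is sequenced. All tissue came from adult female B6CASTF1/J mice of 2 months, an F1 hybrid of C57BL/6J and CAST/EiJ, so every nucleus carried 1 copy of each parent genome. The labels name no treatment or engineered allele. The series held 1 group of 2 biological replicates, each a pool of 2 gastrocnemius biosamples with 2 technical libraries, 4 libraries in all. No groups could be compared, so the 2 lists called on a single replicate gave the spread.

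The replicated list, drawn from both replicates, held 84452 regions over 118.0 Mb, the replicate 1 list 70953 over 85.1 Mb and the replicate 2 list 86937 over 118.0 Mb. Read depth is unknown. The reference behind the authors' signal value of each region is unknown too, so signal values were ranked only within a list. The tissue label was checked against marker genes. A region lay at the start of 6 of 6 skeletal fibre genes, with 8611 to 10001 acetylated bp around the start, and of 0 of 4 cardiac genes and of neither Alb of liver nor Rbfox3 of neurons. Regions also lay at the starts of 3 of 3 endothelial genes (5777 to 8566 bp), 2 of 2 fibroblast genes (8730 and 9645 bp) and 2 of 2 smooth muscle genes (3646 and 4187 bp). Of the adipocyte genes 1 of 3 had a start region, and of the macrophage genes 1 of 3, Cd68, which had none in the replicate 2 list. In this bulk tissue, few cells with strong acetylation and many cells with weak acetylation cannot be told apart, and the part that cells other than fibres took in the regions below was not tested.

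When the plasma membrane of a muscle fibre tears, calcium enters and drives vesicles and membrane-binding proteins to the wound. Dysferlin, the product of Dysf, is a calcium-binding membrane protein of that response, Trim72 encodes MG53, which gathers vesicles at the tear, and Ano5 encodes anoctamin 5, a member of a family of ion channels and lipid scramblases. Loss of dysferlin or of anoctamin 5 causes limb-girdle muscular dystrophy in humans. Cav3 encodes caveolin 3, the muscle form of the protein that shapes caveolae, and Cavin1 a coat protein that caveolae need. Bin1 encodes amphiphysin 2, which bends membrane into transverse tubules, the inward folds that carry the action potential to the calcium stores, and Dnm2 encodes dynamin 2, a GTPase that cuts membrane necks. Mutations of BIN1 and of DNM2 cause centronuclear myopathies in humans.

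The start windows below are those with a MEF2 site (Trim72), a CAGCTG (Cav3) or a start mark in 2 pieces (Dysf and Dnm2), shown together with the strongest acetylated stretch around Dysf, which lies past the end of the gene. Each start window has 270 bases before the annotated start and 30 from the start base on, and the Dysf downstream window has 150 bases before its summit and 150 from it on. All are 300 bases of the reference genome (RefSeq GRCm38.p6, mm10), 5′ to 3′ on the plus strand, which is the coding strand of these genes. They are the reference letters and do not show the CAST/EiJ alleles of the hybrid. Capitals mark matches, on either strand, to the motifs described after them.
Dysf start 1, chr6:84008320-84008619: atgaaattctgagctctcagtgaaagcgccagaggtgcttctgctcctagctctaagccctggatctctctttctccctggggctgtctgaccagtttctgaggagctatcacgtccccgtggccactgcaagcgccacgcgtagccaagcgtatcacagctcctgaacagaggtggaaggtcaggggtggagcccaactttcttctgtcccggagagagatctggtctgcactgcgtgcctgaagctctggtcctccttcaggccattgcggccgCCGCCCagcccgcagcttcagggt
Dysf start 2, chr6:84019115-84019414: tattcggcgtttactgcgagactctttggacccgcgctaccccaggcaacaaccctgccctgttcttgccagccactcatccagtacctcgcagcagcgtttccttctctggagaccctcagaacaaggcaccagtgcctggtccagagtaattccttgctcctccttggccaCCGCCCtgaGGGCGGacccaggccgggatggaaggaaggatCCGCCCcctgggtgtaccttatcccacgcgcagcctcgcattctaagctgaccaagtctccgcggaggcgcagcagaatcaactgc
Dysf downstream summit, chr6:84225171-84225470: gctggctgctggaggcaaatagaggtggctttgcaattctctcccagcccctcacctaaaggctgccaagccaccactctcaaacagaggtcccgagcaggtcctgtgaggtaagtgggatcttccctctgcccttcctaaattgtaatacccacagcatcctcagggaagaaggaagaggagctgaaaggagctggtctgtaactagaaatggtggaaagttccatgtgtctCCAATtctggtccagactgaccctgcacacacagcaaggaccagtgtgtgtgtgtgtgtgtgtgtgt
Trim72 start, chr7:128003679-128003978: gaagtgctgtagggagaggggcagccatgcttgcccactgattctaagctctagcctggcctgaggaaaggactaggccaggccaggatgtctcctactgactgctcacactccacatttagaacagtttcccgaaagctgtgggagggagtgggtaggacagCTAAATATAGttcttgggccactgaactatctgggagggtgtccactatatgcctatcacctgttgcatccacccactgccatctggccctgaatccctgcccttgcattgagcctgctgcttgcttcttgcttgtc
Cav3 start, chr6:112459235-112459534: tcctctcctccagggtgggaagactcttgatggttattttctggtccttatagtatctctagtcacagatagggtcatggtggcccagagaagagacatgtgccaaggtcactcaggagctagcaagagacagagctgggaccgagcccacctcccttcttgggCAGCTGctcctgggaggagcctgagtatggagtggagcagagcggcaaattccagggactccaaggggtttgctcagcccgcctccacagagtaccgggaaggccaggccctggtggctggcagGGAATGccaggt
Dnm2 start, chr9:21424638-21424937: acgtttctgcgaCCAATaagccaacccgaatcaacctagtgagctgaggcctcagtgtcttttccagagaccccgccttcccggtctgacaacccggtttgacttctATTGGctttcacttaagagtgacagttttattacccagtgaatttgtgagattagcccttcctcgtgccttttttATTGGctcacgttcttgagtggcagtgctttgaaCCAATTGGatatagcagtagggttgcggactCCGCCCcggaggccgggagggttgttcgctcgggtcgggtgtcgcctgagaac

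In these windows, 10 motifs were searched as fixed letters on both strands. Positions count from 0 at the start base, with negative numbers before it, and give the first base of a match on the gene's strand. Cav3 held CAGCTG, the E-box form bound by MyoD and its relatives, at -106, and CATTCC, the element bound by TEAD factors, at 18, where it reads GGAATG on the gene's strand. Trim72 held a MEF2 site at -107, a 10-base match to a motif bound by MEF2 factors of muscle. That position counts from the first of its 2 annotated starts (128003949). The second (128004378) had no window of its own. Among the 41162 start windows of all protein-coding genes, 14.8% held CAGCTG, 13.3% held CATTCC and 2.84% held a MEF2 site. The MEF2 site of Trim72 was the only one in the windows at the first start of each cluster of the 7 genes. The CAGCTG of Cav3 was likewise the only one there. Other starts of a cluster had no window of their own, while the shares over all genes take every start.

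Dnm2 and Dysf carried the letters of general promoters. The Dnm2 window held CCAAT, the box bound by NF-Y, at -258, -163, -88, -54 and -51, the last 2 overlapping on opposite strands, and GGGCGG, the GC box bound by Sp and Krüppel-like factors, at -23. Dysf start 1 held GGGCGG at 6, and start 2 held it at -97, -88 and -56. In all start windows, 37.3% held CCAAT at least once and 45.2% held GGGCGG. Windows that are not printed held 5 GC boxes, a CCAAT and a CATTCC at the Bin1 start, a CATTCC and a CCAAT at the Cavin1 start, and 1 CCAAT at the Ano5 start. The general E-box CANNTG, which takes in CAGCTG, was in 68.6% of all start windows and is not capitalised.

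The CpG count of the start windows varied widely. Trim72 held 1 CpG in the 300 bases at its first start and Cav3 held 4, against a median of 12 and quartiles of 4 and 24 in windows at every start of all genes. Cavin1 held 6, while Dysf start 1 held 13, Ano5 14, Dnm2 16, Dysf start 2 17 and Bin1 20. The GC content did not follow the same order: it was 47.0% at Cavin1, 52.3% at Dnm2, 54.0% at Trim72, 58% at Cav3, 59.3% at Dysf start 1, 60.7% at Dysf start 2, 61.0% at Ano5 and 66.3% at Bin1, against a median of 55.7%. Matches are descriptions of the letters and do not show that a factor bound.

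A region lay within 1 kb of a start in 7 of 7 genes in the replicated list and in 7 of 7 in each single-replicate list, against 61.2% of all protein-coding genes in the replicated list, 58.9% in replicate 1, 61.1% in replicate 2, 58.6% in both single lists at once and 61.6% in the pooled list, where it was also 7 of 7. Each of their 23 annotated transcript starts had a region within 1 kb in every list. The median acetylated length, the base pairs covered by regions within 5 kb to each side of the best start of a gene, was 5672 bp for the 7 genes (5306 bp in replicate 1 and 5951 bp in replicate 2). It was 1470 bp for all protein-coding genes and 2569 bp for the 13261 genes with a start region. The 7 genes lay above the background median in each list, and their own range was wide.

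Cavin1 had the longest acetylated stretch: replicate 1 gave 7274 bp, replicate 2 gave 7404 bp and the replicated list 7720 bp, where 96.9% of all genes had less. Bin1 came next with 6460, 6601 and 6695 bp. Cav3 had the shortest, with 2770, 3172 and 3231 bp, and still exceeded 76.2% of all genes. Cavin1 and Bin1 stood above the other 5 in replicate 1, while in replicate 2 Dysf (6665 bp) passed Bin1, and Cav3 was the lowest in all lists.

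Between these ends the remaining genes kept the same order in both replicates: Dysf, Ano5, Dnm2 and Trim72. In the replicated list Trim72 stood slightly above Dnm2. Dysf had 5430 bp in replicate 1, 6665 bp in replicate 2 and 5713 bp in the replicated list, all at the second of its 2 clusters of starts. At the first cluster it had 4237, 4498 and 4341 bp, below Trim72 and Dnm2 in replicate 2 and the replicated list. Ano5 had 5306, 5951 and 5672 bp in the same lists. Trim72 had 3351, 4555 and 5087 bp, and Dnm2 4034, 4957 and 4974 bp. The ranges of Dysf and Ano5 overlapped between replicates, and so did those of Trim72 and Dnm2, while each of the first pair exceeded each of the second pair in both replicates. The shorter lengths in replicate 1 go with its shorter list, and the median over all genes was 1185 bp there and 1467 bp in replicate 2.

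**Figure D1:**
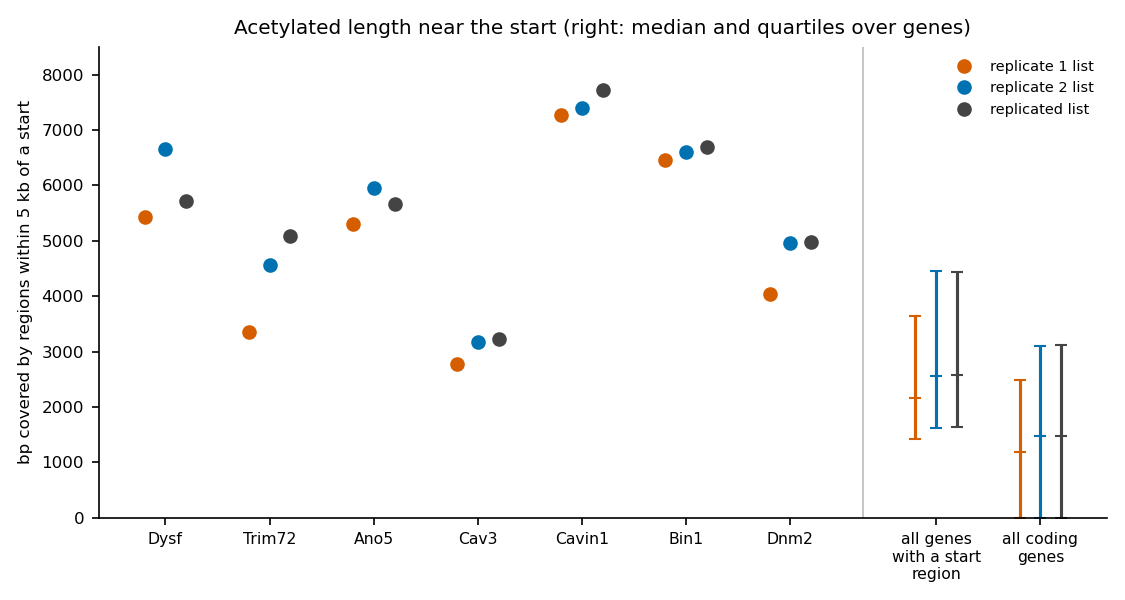
Base pairs covered by H3K27ac regions within 5 kb of the best start, for each of the 7 genes in the replicate 1, replicate 2 and replicated lists, with the median and quartiles over genes with a start region and over all protein-coding genes at the right. Cavin1 sits between 7274 and 7720 bp and Cav3 between 2770 and 3231 bp, both above the median of 1470 bp over all genes.

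The strength of the start regions gave another order. The highest signal value at a start, in the replicated list, was 51.7 at Cavin1, 40.0 at Dnm2, 37.9 at Trim72, 35.4 at Bin1, 32.5 at Cav3, 28.0 at Dysf and 22.2 at Ano5. The median over the 13261 genes with a start region was 27.4, so Cavin1 exceeded 93.0% of them, Dysf 51.3% and Ano5 38.5%. Ano5 thus paired a long acetylated stretch with a start region of lower signal. The starts of Dysf lie in 2 clusters. Its 5713 bp belonged to the second, whose region had a signal value of 24.4. Its 28.0 belonged to the first, where the acetylated length was 4341 bp. In replicate 1 the start signals ran from 14.9 (Ano5) to 43.2 (Cavin1), and in replicate 2 from 26.0 (Ano5) to 50.6 (Cavin1). The 7 genes fell in 1 and the same order in replicate 1, replicate 2 and the replicated list, although Dnm2 (30), Trim72 (29.7) and Bin1 (29.6) were nearly level in replicate 1.

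Dysf (ENSMUSG00000033788.15, chr6:84008590-84211060, plus strand) is a gene of 202471 bp with 7 annotated starts in 2 clusters 10470 bp apart. Both clusters lay in regions of their own. The first region (chr6:84007856-84011727) had a signal value of 20.1 in replicate 1, 30.9 in replicate 2 and 28.0 in the replicated list, and the second (chr6:84018412-84023670, in intron 1 of the 56-exon transcript) had 18.9, 18.6 and 24.4. The first cluster was above the second in both replicates, narrowly in replicate 1. An antisense gene, Gm33024, overlaps the first region and starts past its end, in a weak region with a signal value of 5.41 (chr6:84011906-84012374), and the lists do not tell its acetylation from that of Dysf.

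The strongest region of the Dysf window was not at a start. It lay downstream (chr6:84224193-84227310), with its summit 14261 bp past the end of the gene, and had signal values of 30.5 in replicate 1, 35.6 in replicate 2 and 36.8 in the replicated list, above both start regions in each. The annotation places the start of a long intergenic noncoding RNA, Gm44127 (chr6:84225252-84286603, plus strand), in this region, and the next protein-coding gene on that side, Cyp26b1, lies 360 kb from the end of Dysf. The summit window printed above held a CCAAT and a general E-box, and no match to the other motifs searched. Whether this region acts on Dysf, on Gm44127 or on another gene is not shown by these lists.

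Inside Dysf the mark was patchy. Regions covered 16.6% of the gene body, while replicate 1 had 13.4% and replicate 2 15.9%. The median over all genes was 4.23%. A block of 8025 bp (chr6:84052484-84060508), whose summit fell in exon 4, had a signal value of 9.4 and was split into 6 regions in replicate 1 and 2 in replicate 2. A narrower region in intron 40 (chr6:84154340-84156960) had 14.2 in replicate 1, 24.2 in replicate 2 and 22.0 in the replicated list. A further region over the 3′ end (chr6:84208536-84212469) had 17.3, 18.7 and 19.2. The longest stretch of the gene body without a region was 44.7 kb in the replicated list (chr6:84060509-84105171). In the single lists it lay elsewhere, in the 3′ part of the gene, with 51.0 kb from replicate 1 (chr6:84157518-84208544) and 50.9 kb from replicate 2 (chr6:84157651-84208533).

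Trim72 (ENSMUSG00000042828.12, chr7:128003949-128011033, plus strand) had 1 start region (chr7:128002542-128005672), with signal values of 29.7 in replicate 1, 39.2 in replicate 2 and 37.9 in the replicated list. Its summit lay 95 bp before the second of the 2 annotated starts and 334 bp past the first, where the printed window was taken. The antisense gene Gm15533 starts within this region, and the lists do not tell its acetylation from that of Trim72. The 3′ part of this gene of 7085 bp had no region: the bare stretch up to its end was 4.83 kb in the replicated list, while replicate 1 gave 5.63 kb and replicate 2 gave 5.45 kb. Upstream, 1 region of the flank (chr7:128000309-128001548) had a signal value of 7.21.

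Ano5 (ENSMUSG00000055489.8, chr7:51511029-51598709, plus strand) had the fewest regions, 3 in a window of its body and both flanks. The start region (chr7:51510196-51515867) had signal values of 14.9 in replicate 1, 26.0 in replicate 2 and 22.2 in the replicated list. A region 33.8 kb upstream (chr7:51476143-51478856) had 14.4, 22.7 and 21.0, close to the start region in each list and below it in each. The third, at 2.31, was found in neither replicate. No other coding gene lies within the upstream 50 kb, and the nearest on that side, Nell1, is 644 kb away. From 51516796 to the end of the gene, 81.9 kb, the replicated list held no region, and the bare stretch measured 83.0 kb (replicate 1) and 82.5 kb (replicate 2).

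Cav3 (ENSMUSG00000062694.7, chr6:112459505-112472872, plus strand) had 1 annotated start and a compact start region of 1891 bp (chr6:112458978-112460868). Its signal value was 26.4 in replicate 1, 33.7 in replicate 2 and 32.5 in the replicated list, and its summit lay 306 bp inside exon 1. The other 2 regions of the gene had 5.67 and 4.51. The first of these (chr6:112462730-112464069) also held CAGCTG within 150 bases of its summit, as 19.7% of all summit windows did, against 12.9% of windows 5 kb away that overlapped no region. No region of the upstream flank lay apart from the start region. Oxtr, the oxytocin receptor gene, ends 811 bp from the end of Cav3, and the region at its start had a signal value of 3.06 and was found in neither replicate.

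Cavin1 (ENSMUSG00000004044.9, chr11:100956733-100970887, minus strand) lay almost whole under 1 region. That region (chr11:100957104-100971940) was 14837 bp wide, covered 97.4% of the gene body and ranked 868 of 84452 by signal value. Its signal value was 43.2 in replicate 1, where it was split into 3 regions, 50.6 in replicate 2 and 51.7 in the replicated list. The covered share of the gene body was 95.5% in replicate 1 and 97.4% in replicate 2. Both neighbouring coding genes also had strong start regions, Stat3 with 45.6 and Atp6v0a1 with 36.4, and 10 of the 16 regions in the Cavin1 window were nearer to a start of another gene. The 6 regions of the upstream flank that were at no start had at most 11.8.

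Bin1 (ENSMUSG00000024381.16, chr18:32377230-32435737, plus strand) was covered over 69.2% of its body, with 59.6% for replicate 1 and 69.4% for replicate 2. The start region (chr18:32376349-32383438) had signal values of 29.6 in replicate 1, 38.0 in replicate 2 and 35.4 in the replicated list. A region in intron 6 (chr18:32409254-32417104, 7851 bp) had 28.6, 43.0 and 39.6, so it was above the start region in replicate 2 and slightly below it in replicate 1. Their order was not settled by these replicates. The noncoding gene A830052D11Rik starts on the other strand within the start region.

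The 2 ends of Bin1 differed. Intron 1 held a region of 10533 bp (chr18:32384098-32394630) with a signal value of 20.4 in replicate 1, 27.3 in replicate 2 and 26.6 in the replicated list, next to another of 6523 bp with 13.0. Upstream, a pair of neighbouring regions (chr18:32339692-32343136 and chr18:32343216-32346141) had 24.6 and 18. The downstream flank held 4 weak regions, 1606 bp in all, and none in replicate 1. The longest stretch of the gene body without a region was 8.42 kb and lay in its 3′ part.

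Dnm2 (ENSMUSG00000033335.17, chr9:21424908-21507759, plus strand) had a start mark in 2 pieces. The region before the start (chr9:21424072-21424781) had signal values of 10 in replicate 1, 13.5 in replicate 2 and 12.1 in the replicated list, and the region over it (chr9:21424879-21426542) had 30, 41.1 and 40.0. A gap of 97 bp parted them, and it measured 129 bp in the replicate 1 list and 87 bp in that of replicate 2. It began 126 bp and ended 30 bp before the first start in the replicated list, and the CCAAT matches at -88, -54 and -51 of the printed window lie in it. The gap was in every list and held these 3 matches in each.

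Further into Dnm2, a region in intron 2 (chr9:21461247-21465006) had signal values of 24.9 in replicate 1, 35.4 in replicate 2 and 33.6 in the replicated list, below the start region in each. Intron 1 held a region (chr9:21449048-21454045) with 15.5, 19.8 and 19.2. A pair in intron 15 (chr9:21493652-21496827 and chr9:21496944-21498763), with 14.3 and 10.9, lay around Mir199a-1, a microRNA gene on the opposite strand. Between intron 2 and that pair, 28.6 kb had no region, and the bare stretch measured 30.3 kb in the replicate 1 list and 27.8 kb in that of replicate 2. The window was crowded, and the strongest region in it, with 48.5, was at the start of Tmed1, which overlaps the 3′ end of Dnm2. The starts of Carm1 (29.5 and 39.5) and Qtrt1 (22.6) also had regions.

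**Figure D2:**
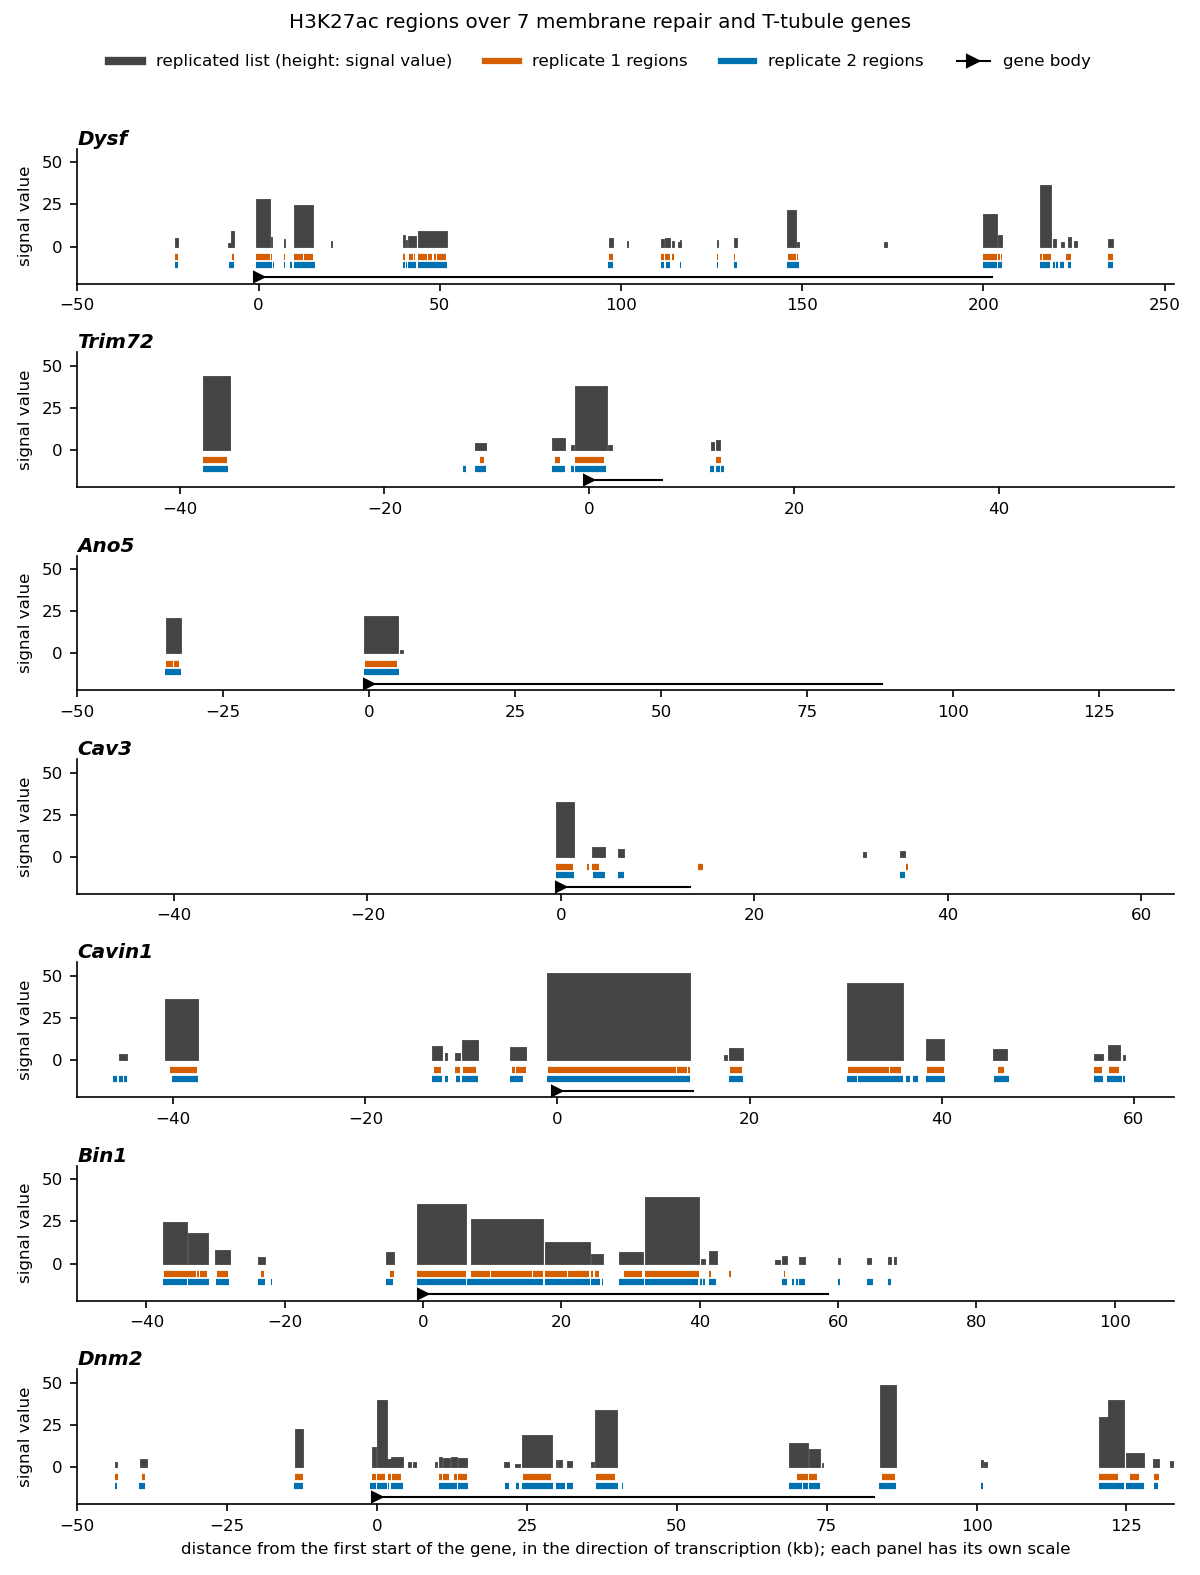
H3K27ac regions over each gene body and 50 kb to each side, against the distance in kb from the first start in the direction of transcription; dark bars show the signal value in the replicated list and the coloured lines the regions of replicate 1 and replicate 2. Cavin1 is covered over 97.4% of its body, Bin1 over 69.2% and Ano5 over 6.13%, with its marks at the start and 33.8 kb upstream.

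Over the 7 genes, the share of the gene body under regions had a median of 30.2%, with 20.6% from replicate 1 and 24.4% from replicate 2. It was 4.23% over all genes and 11.8% over genes with a start region. Dnm2 (33.5%), Trim72 (30.2%) and Cav3 (25%) lay between Bin1 and Dysf. All 7 windows of gene body and flanks held at least 1 region, as 81.1% of all such windows did, and their median was 16 regions, against 6 for all genes and 10 for genes with a start region. Dnm2 had 33 and Dysf 32, both long genes, while Cav3 had 5 and Ano5 3. Longer genes have wider windows, so these counts are not per length.

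The 7 windows held 117 regions. Of these, 9 lay at a start of the gene itself, 54 elsewhere in its body, 19 in the upstream flank, 24 in the downstream flank and 11 at a start of another coding gene. In all, 35 of the 117 were nearer to a start of another gene. At least 50% overlap of the shorter region was found in both replicates for 75 of the 117, or 64.1% (exact 95% binomial interval 54.7 to 72.8, counting error only), close to the 63.3% of the whole list. The interval takes the regions as independent, which neighbours in the same window need not be, and leaves out the spread between biological replicates.

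Replication followed signal. The 75 regions found in both replicates had a median signal value of 8.11 (2.82 to 51.7), the 24 found in 1 replicate 3.58 (at most 4.64) and the 18 found in neither 3.04 (at most 3.74). All 31 regions with a signal value of at least 10 were in both, including every start region of the 7 genes. Of the 24 found in 1 replicate, 23 were in replicate 2, which has the longer list. By gene, the regions found in neither replicate were 5 of 32 for Dysf, 1 of 8 for Trim72, 1 of 3 for Ano5, 1 of 5 for Cav3, 1 of 16 for Cavin1, 2 of 20 for Bin1 and 7 of 33 for Dnm2.

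**Figure D3:**
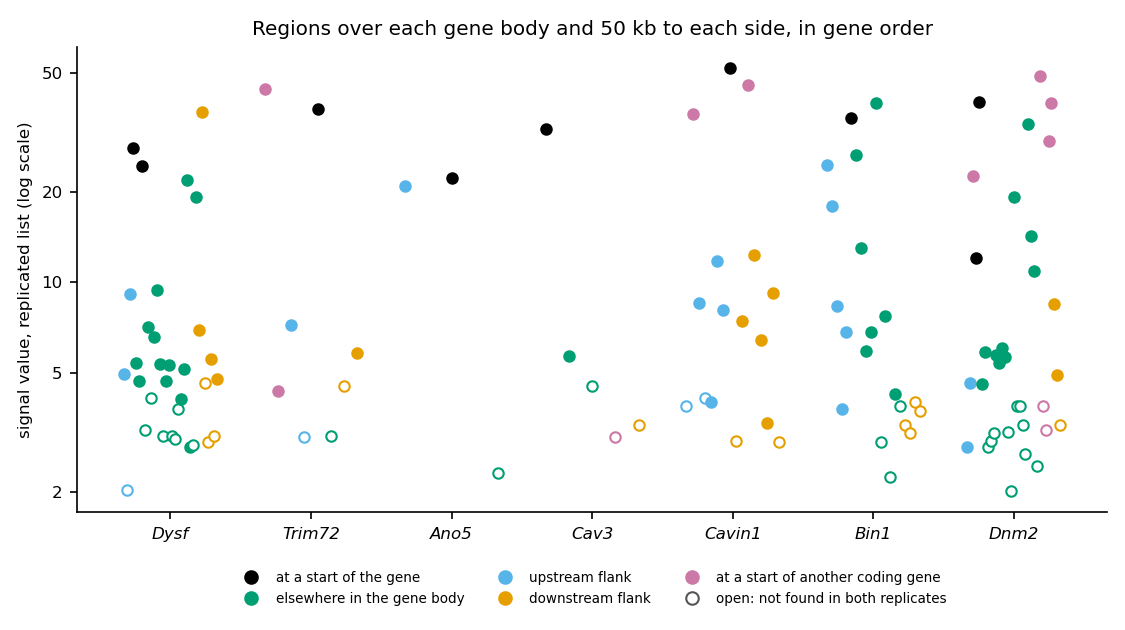
Signal value in the replicated list, on a log scale, of the 117 regions in the windows of the 7 genes, coloured by place; open circles mark regions not found in both replicates. All 31 regions with a signal value of at least 10 are filled, and the strongest away from any coding start are those in Bin1 intron 6 (39.6), downstream of Dysf (36.8) and in Dnm2 intron 2 (33.6).

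The share of genes with a start region differed between the paralog families. Among ferlins, 2 of 6 had a start region, Dysf with an acetylated length of 5713 bp and Myof, which encodes myoferlin, with 2705 bp, while Otof, Fer1l4, Fer1l5 and Fer1l6 had none. Among anoctamins it was 5 of 10, led by Ano5 (5672 bp), Ano6 (5169 bp) and Ano8 (4274 bp), and Ano2, Ano3, Ano4, Ano7 and Ano9 had none. Without a region within 1 kb of a start, Fer1l5 (2171 bp) and Ano9 (1511 bp) still had acetylated bases within 5 kb. Over all protein-coding genes the share with a start region was 61.2%, above that of the ferlins and close to that of the anoctamins. In replicate 1 Dysf had 5430 bp and Myof 2074 bp, and in replicate 2 they had 6665 and 2393 bp. Ano5 and Ano6 had 5306 and 4061 bp in replicate 1, and 5951 and 5068 bp in replicate 2. The muscular dystrophy genes thus had the longest acetylated length of both families in each replicate. The highest signal value at a start, in the replicated list, gave another order among anoctamins. Ano5 (22.2) was below Ano6 (44.8), Ano8 (43.9) and Ano10 (40.4) and above Ano1 (7.34). Among ferlins, Dysf (28.0) was above Myof (17.4).

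In the caveola families the muscle member was not ahead in acetylated length. Cav3 (3231 bp) was below Cav1 (8135 bp) and Cav2 (6749 bp), the caveolins of endothelium and other tissues, and the order was the same in replicate 1 (2770, 7341 and 6090 bp) and replicate 2 (3172, 7470 and 6793 bp). By the highest signal value at a start, in the replicated list, Cav3 (32.5) was above Cav2 (24.3) and slightly below Cav1 (33.8). All 4 cavins had a start region, Cavin1 with 7720 bp, the muscle cavin Cavin4 with 6781 bp, Cavin2 with 6295 bp and Cavin3 with 6028 bp. Their start signal values were 51.7 at Cavin1, 36.3 at Cavin3, 24.9 at Cavin4 and 22.1 at Cavin2. Markers of several cell types were acetylated here too. The endothelial ones had 5777 to 8566 bp, the skeletal fibre ones 8611 to 10001 bp, the fibroblast ones 8730 and 9645 bp and the smooth muscle ones 3646 and 4187 bp. Which cells carried the mark at the caveolin and cavin starts was not tested.

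For Bin1, the gap to its paralogs was wide: Bin1 had 6695 bp, Bin3 2067 bp, Bin2 1536 bp and Amph 458 bp. Bin2 had no region within 1 kb of a start. For Dnm2 it was not: Dnm2 had 4974 bp, between Dnm1 (5768 bp) and Dnm3 (3259 bp), all with a start region. In replicate 1 Dnm2 (4034 bp) was slightly above Dnm1 (3963 bp), so the order of these dynamins was not settled.

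Of the 65 paralogs and partners other than the 7 genes, 54 had a start region, also 54 from replicate 1 and 54 from replicate 2, where the shares over all protein-coding genes were 61.2%, 58.9% and 61.1%. The median acetylated length of the 65 was 5025 bp, against 1470 bp over all genes. All 13 T-tubule and triad genes had one, with a median of 7947 bp, above that of the 7 genes, and Speg (9904 bp) and Tcap (9183 bp) were among the longest. Annexins are calcium-dependent membrane binders that gather at tears. Only Anxa1 to Anxa7 and Anxa11 were examined, and other annexins were not. Anxa2 (5748 bp), Anxa11 (5140 bp) and Anxa3 (5066 bp) were the longest of these 8, whose median was 4982 bp. Each of the 8 had a start region. All 13 repair partners had one too, with a median of 3591 bp, below that of the 7 genes. Their longest were Ahnak, which encodes a giant dysferlin-binding protein and whose whole window of 10001 bp was covered, the muscle calpain Capn3 (9310 bp) and the calpain Capn2 (7000 bp). Of the caveola coat partners, 6 of 7 had one. Pacsin3, a muscle syndapin, reached 10001 bp, Ehd1 9812 bp and Pacsin2 8498 bp, while Pacsin1, a neuronal form, had none.

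**Figure D4:**
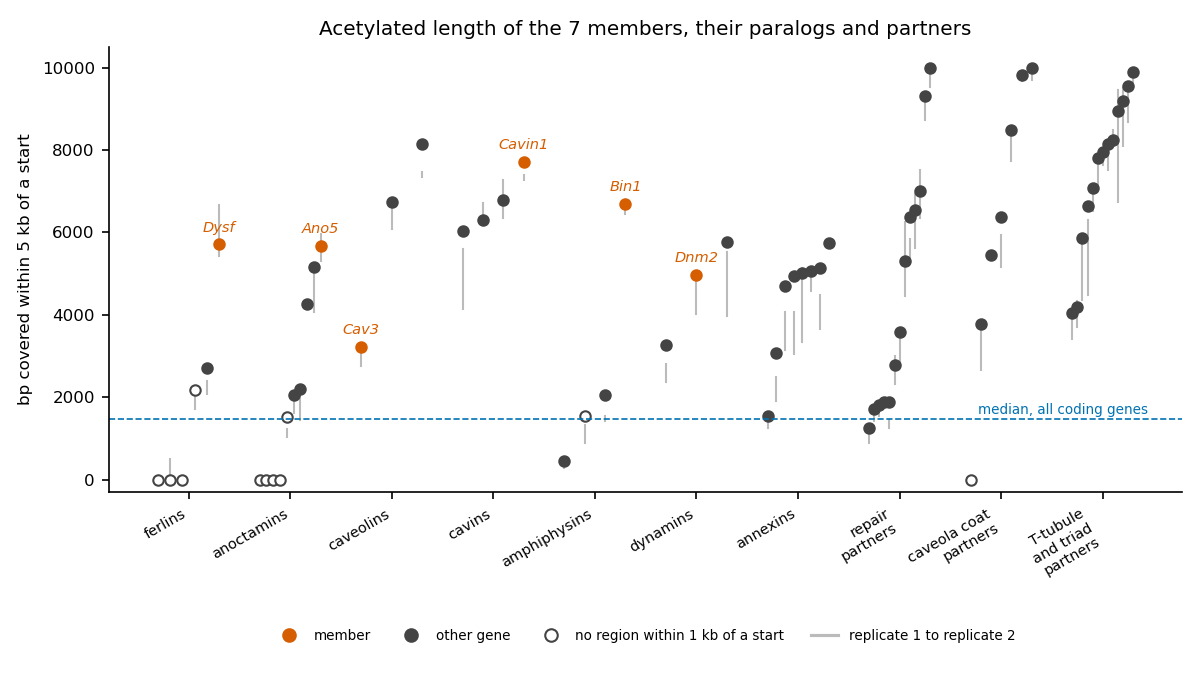
Acetylated length of the genes in each paralog family and partner list (points, replicated list) with the span from replicate 1 to replicate 2 (grey lines); 6 of the 7 genes are labelled, since Trim72 is in none of these families, and the dashed line is the median over all genes, 1470 bp. Dysf, Ano5, Cavin1 and Bin1 are the longest of their families, and Cav3 the shortest of the caveolins.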

How the data were processed

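The measurements were deposited peak lists of H3K27ac ChIP-seq in narrowPeak format on mm10: 1 per biological replicate, 1 pooled and 1 replicated. Per the deposited descriptions, technical replicates shared 1 alignment, so each biological replicate counts once. For every peak the authors deposited a signal value, a q-value as −log10 and a score. The sources used here do not give the authors' aligner, peak caller and thresholds, and the control library was not analysed here. A list's length and widths can depend on its unknown depth.

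Genes and starts came from GENCODE M21 basic (21668 protein-coding genes, 41162 starts), and sequence from RefSeq GRCm38.p6. All coordinates count from 1. A start region lay within 1000 bp of a start. Acetylated length is the covered base pairs within 5000 bp to each side. A region was found in a replicate where at least 50% of the shorter region overlapped. Scripts used Python 3.11.15, numpy 2.4.6, pandas 2.3.3 and pyfaidx 0.9.0.4, and were tested on simulated data. With 1 group there was no test between samples. The genes and lists were chosen with earlier results of these data known. Of each list the text names the 3 genes with the longest acetylated length and every gene without a start region, and of the neighbours those with a start region. Of each of the 7 genes it names the start regions and the 3 others with the highest signal values. Some genes that this rule takes in are not reported here. Genes and regions named beyond this rule were chosen after their values were seen.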

Additional observations from a re-analysis of the deposited data

How the results depend on the processing

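A start region was present in 7 of 7 genes under every alternative tried: each replicate alone, the pooled list, a −log10 q of at least 5, windows of 500 and 2000 bp, and the gene model's 5′ end alone. Over all protein-coding genes the share was 60.6% at that −log10 q and 58.8% from the 5′ end alone. It was 60.5% and 62.2% with windows of 500 and 2000 bp. The median acetylated length, 5672 bp, was 3412 bp within 2500 bp to each side, 6234 bp within 10000 bp and 5087 bp from the 5′ end alone, and leaving out a replicate gave 5306 to 5951 bp. The 117 regions became 62 over the gene bodies alone and 182 with flanks of 100 kb, and 105 to 114 without a replicate, with Trim72 at 5 against 8 and Dnm2 at 20 against 33 without replicate 2. Asking for 50% of both regions lowered the share found in both replicates to 45.3%, against 64.1%. Of single-gene lengths, 27 moved by less than 1 SD of both replicates' values and 22 by more; of single-gene counts, 43 stayed within 1.5 times and 13 did not. No paired analysis was possible because there was 1 group. Depth is unknown, so the weakest regions are the least certain.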
